A study of Homo sapiens with 8 samples.

Results

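The AP-1 family is described here through 10 genes of the deposited table of 47591 entries. The members were taken by gene symbol and are the Fos genes FOS, FOSB, FOSL1 and FOSL2, the Jun genes JUN, JUNB and JUND, and the related factors ATF3, BATF3 and MAFF. Each symbol matched a single entry, and all 10 passed the filter on low values (mean over the libraries of 10 normalized counts or more). RNA-seq of polyadenylated RNA was performed in SH-SY5Y cells, a human neuroblastoma (NB) line of neural crest origin, to compare cells with reduced PRPF40B, a splicing factor, with their controls. The G2 line carries a CRISPR/Cas9 edit made with a guide against PRPF40B (3 libraries), the scramble (SCR) line received the CRISPR/Cas9 machinery with a control guide (3 libraries), and the WT line was not modified (2 libraries). Edited lines were selected with puromycin, grown up as single colonies after limiting dilution and kept in puromycin, so the libraries of a line sample 1 derivative and not several independent edits. No other agent, time course or differentiation treatment is given for these libraries. The labels call the libraries of a line biological replicates without saying whether they came from separate cultures, so the p-values measure only the spread between these libraries.

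AP-1 factors are basic leucine zipper (bZIP) proteins that bind DNA as pairs. Jun proteins pair with themselves or with Fos proteins, whereas Fos proteins need a Jun partner, and the resulting dimers bind the TRE, a short DNA element written TGANTCA, or the related CRE. Several members, FOS above all, are immediate-early genes, which are transcribed within minutes of growth factor signalling through the MAP kinases. In NB, Fos-related factors and JUN are known as part of the transcription factor set of mesenchymal-type cells, as opposed to the adrenergic cells marked by HAND2.

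As the check of the labels, PRPF40B stood at 866 ± 44.5 normalized counts in G2 (mean ± SD, n = 3), 1676 ± 8.79 in SCR (n = 3) and 1820 ± 215 in WT (n = 2). Recovered totals ran from 59804395 to 81080747 counts per library, and most small counts were multiples of 3, which would make 19934798 to 27026916 counted fragments if each gave 3 counts. Ribosomal RNA genes took 4.75% and 4.97% of the WT libraries and 0.389% to 0.592% of the others. After scaling every library to an equal total, the median log2 fold change of all tested genes moved from -0.01 to -0.10 in G2/SCR, from near 0 to 0.19 in G2/WT and from 0.01 to 0.29 in SCR/WT. The share of called genes that were higher then moved from 57.3% to 48.2%, from 59.8% to 76.5% and from 64.9% to 91.4%. A gene was called when limma gave a fold of at least 1.5 and an adjusted p (Benjamini-Hochberg) no higher than 0.05, and log2 fold changes are on the log2(normalized count + 1) scale, which understates the change of weakly expressed genes.

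Promoter sequence from RefSeq (GRCh38.p14, the hg38 build) was at hand for 8 of the 10 members, as 10 windows from 250 bases before to 50 bases after a transcription start. FOSL1 and BATF3 had no entry. These stretches were picked with the expression values known. FOS and FOSL2 were called higher in both G2 comparisons, MAFF in G2/WT only, and FOSB was called lower in G2/SCR. The shared letters lie close before the start in each, with JUN and ATF3 shown for a variant of them. JUND, whose window also held the core, is not shown. Each stretch of 60 bases is given on the strand of the gene, with the CRE (TGACGTCA), its core TGACGT or a CRE-type match to TGANNTCA in capitals.
FOS, chr14:75278737-75278796, core starting 64 bases before the start: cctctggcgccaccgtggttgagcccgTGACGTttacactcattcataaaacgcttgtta
FOSL2, chr2:28392765-28392824, core starting 66 bases before the start: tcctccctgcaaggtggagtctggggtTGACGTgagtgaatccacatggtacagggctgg
FOSB, chr19:45467909-45467968, core starting 60 bases before the start: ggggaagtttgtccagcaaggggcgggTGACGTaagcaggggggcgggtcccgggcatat
MAFF, chr22:38201914-38201973, CRE starting 54 bases before the start: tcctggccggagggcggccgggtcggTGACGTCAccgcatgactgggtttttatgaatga
JUN, chr1:58784081-58784140 (minus strand), CRE-type match starting 67 bases before the start: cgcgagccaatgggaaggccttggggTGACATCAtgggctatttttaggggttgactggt
ATF3, chr1:212565258-212565317, CRE-type match starting 123 bases before the start: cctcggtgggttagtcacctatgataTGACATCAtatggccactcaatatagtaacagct

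Both strands were searched. Among all 35116 promoter windows of the table, 7.98% held the core, 1.85% the full CRE (which contains the core), 11.5% the CRE-type letters (which include the full CRE) and 7.71% the TRE. Of the 10 windows of the members, 5 held the core, 2 the full CRE, 4 the CRE-type letters and 1 the TRE, which lay in FOSL2 just downstream of its start. The JUND window held a full CRE as well, 200 bases before its start. No member window held a CArG box, the element of serum response factor, against 1.29% of all windows. A box further upstream than the windows reach could not be found, so the search cannot show that a member lacks such a box. All the motif counts are matches of letters in short windows and were not tested against the expression data. Of the members with the core, FOS and FOSL2 were called higher in G2/SCR, FOSB was called lower, and JUND and MAFF were not called.

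In G2/SCR, the comparison of the PRPF40B-silenced line with the edited control, 6 of the 10 members were called, 5 higher and 1 lower in G2. Of all 18947 tested genes, 25.0% were called in this comparison, 14.3% higher and 10.7% lower. FOSL2, FOS, BATF3, FOSL1 and ATF3 were higher and FOSB was lower. The median log2 fold change of the 10 members was 0.65, against -0.01 over all tested genes. In G2/WT 5 members were called, all higher in G2 (FOSL1, FOS, FOSL2, BATF3 and MAFF), with 28.2% of all tested genes called, 16.9% higher and 11.3% lower, and a median of 0.67 against 0.00. Both comparisons share the G2 libraries, so they are not independent of each other. For 7 of the 10 members, all G2 libraries lay above all 5 control libraries, which held for 22.8% of all tested genes. No member had all G2 libraries below all controls (19.7% of tested genes). FOSB, JUND and ATF3 overlapped the pooled range of the controls. The members were chosen with results of these data in view, so these counts are a description of the family and not a test of it.

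**Figure D1:**
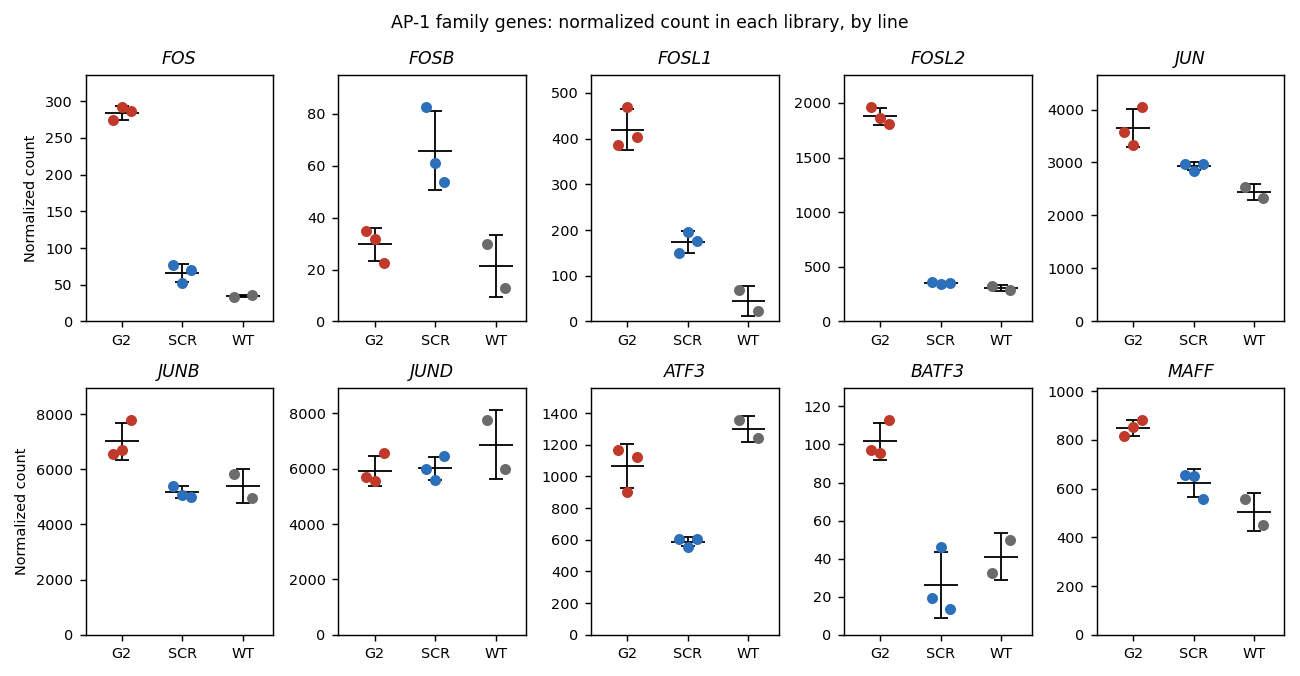
Normalized count (vertical axis, linear, from 0) of each AP-1 family gene in every library, by line on the horizontal axis. Points are libraries, and bars give the mean with the SD (n = 3 for G2 and SCR, n = 2 for WT). FOSL2 and FOS stand clear of both controls in G2, FOSL1 falls in steps from G2 to SCR to WT, FOSB is highest in SCR, and ATF3 is lowest in SCR.

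Among the Fos genes, which supply the partner that binds Jun but not itself, FOSL2 changed with the smallest spread. FOSL2 (GSHG0023663, chr2:28392800-28417317) had 1965, 1859 and 1806 normalized counts in the G2 libraries, 357, 341 and 349.9 in SCR, and 323 and 284 in WT. The G2 values lay far above all controls, and every SCR value lay above both WT values by a small margin. The ratio of the means was 5.37 in G2/SCR, with a log2 fold change of 2.42 (SE 0.08, adjusted p = 4e-10, limma). In G2/WT the ratio was 6.19 and the log2 fold change 2.63 (SE 0.09, adjusted p = 6e-10, limma). SCR/WT was not called, at 0.21 (adjusted p = 0.11, limma). FOSL2 encodes FRA-2, a Fos protein that lacks the strong activation domains of FOS.

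FOS (GSHG0012337), the founding member and the textbook immediate-early gene, had 274, 292 and 287 normalized counts in G2, 76.5, 52.6 and 70.3 in SCR, and 33.5 and 35.7 in WT. No line overlapped another. The mean in G2 was 4.28 times that in SCR and 8.21 times that in WT, with log2 fold changes of 2.10 (SE 0.18, adjusted p = 1.3e-06, limma) and 3.00 (SE 0.20, adjusted p = 1.5e-07). FOS was also called in SCR/WT, at 0.90 (SE 0.20, adjusted p = 0.00449, limma). The FOS entry of the table runs over 431 kb, chr14:75278828-75709788, whereas GENCODE 44 places FOS within 3.4 kb at its left end. The wider entry overlaps those of JDP2, FLVCR2, TTLL5 and ERG28. Over the 8 libraries TTLL5 had 1673 to 1881 normalized counts and ERG28 5325 to 7197, with no such order of lines. JDP2, a bZIP repressor, had 764 to 883 in G2, 676 to 811 in SCR and 291 to 379 in WT, above FOS in every library, and like FOS it was called higher in G2/WT (1.29) and in SCR/WT (1.13). FLVCR2, a transporter gene, had 27.4 to 45.1 in G2 and 0 to 11.3 in the controls. Whether reads of these genes were counted in the FOS entry was not tested.

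FOSL1 (GSHG0007909, chr11:65892019-65900545) encodes FRA-1, a Fos protein tied to invasive growth in many tumour cells. It had 386, 470 and 404 normalized counts in G2, 149, 195 and 177 in SCR, and 68.3 and 21.8 in WT. The lines formed 3 steps without overlap. On the log2 scale G2 exceeded SCR by 1.27 (SE 0.31, adjusted p = 0.00447, limma), with 3.40 in G2/WT (SE 0.34, adjusted p = 5.5e-06) and 2.13 in SCR/WT (SE 0.34, adjusted p = 0.00059). FOSL1 was thus called in all 3 comparisons and higher in SCR than in the unmodified cells. On the log2 scale, the WT libraries differed from each other by more than the SCR or G2 libraries did. Without WT replicate 1 or 2 the log2 fold change in G2/WT was 4.20 or 2.60, and in SCR/WT 2.93 or 1.33, with every call kept.

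FOSB (GSHG0021760, chr19:45467995-45475179), an immediate-early gene best known from activated neurons, was the least abundant member in G2 and WT, and moved differently from the other Fos genes. It had 34.8, 31.8 and 22.6 normalized counts in G2, 82.7, 61.0 and 53.7 in SCR, and 29.8 and 12.9 in WT. SCR lay above both other lines, which overlapped each other. FOSB was lower in G2/SCR, with a log2 fold change of -1.12 (SE 0.35, adjusted p = 0.0193, limma), and higher in SCR/WT, at 1.67 (SE 0.39, adjusted p = 0.0062). In G2/WT it was 0.55 (adjusted p = 0.267, limma) and not called. The G2/SCR call was lost without G2 replicate 3 (adjusted p = 0.0681, limma) or without SCR replicate 1 (adjusted p = 0.0867). Without WT replicate 1, FOSB was called higher in G2/WT, at 1.12 (adjusted p = 0.0447, limma), and without WT replicate 2 that difference was -0.03. FOSB lies inside the entry of ERCC1, which had 4351 to 5712 normalized counts, so a small part of misassigned reads would be large beside its own counts. The strand setting of the counting is not given in the sources used here.

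The Jun genes were far more abundant and moved less. JUN (GSHG0002512, chr1:58780791-58784047), the partner of the classical FOS:JUN dimer, had 3569, 3335 and 4052 normalized counts in G2, 2963, 2844 and 2978 in SCR, and 2545 and 2331 in WT. The lines did not overlap and stood in the order G2, SCR, WT. The differences were small, with log2 fold changes of 0.31 in G2/SCR (SE 0.07, adjusted p = 0.00404, limma) and 0.58 in G2/WT (SE 0.08, adjusted p = 0.0001). Neither reached the fold of 1.5, although G2/WT came close with a fitted fold of 1.49. JUN was called in G2/WT without G2 replicate 1, G2 replicate 2 or WT replicate 1, at 0.59, 0.64 and 0.64, and with all libraries at the same total, at 0.77.

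JUNB (GSHG0021212, chr19:12791475-12793315), often a weaker activator than JUN, had 6542, 6709 and 7784 normalized counts in G2, 5409, 5083 and 5002 in SCR, and 5820 and 4957 in WT. All G2 values lay above all controls, while SCR and WT overlapped. The log2 fold change of 0.44 in G2/SCR (SE 0.08, adjusted p = 0.00062, limma) and 0.38 in G2/WT (SE 0.09, adjusted p = 0.00321) stayed below the fold of 1.5. JUND (GSHG0022521, chr19:18279694-18281622), the Jun gene that is expressed steadily in most cells, had 5697, 5542 and 6549 in G2, 6003, 5605 and 6443 in SCR, and 7757 and 5985 in WT. All 3 lines overlapped, and the log2 fold change in G2/SCR was -0.02 with an SE of 0.10 (adjusted p = 0.865, limma). In G2/WT it was -0.20 (SE 0.11, adjusted p = 0.132, limma). With all libraries at the same total, the latter was -0.02. No Jun gene was called in SCR/WT, where JUN was at 0.27 (adjusted p = 0.0273, limma), JUNB at -0.06 (adjusted p = 0.654) and JUND at -0.18 (adjusted p = 0.216). At the same total the values of JUNB and JUND there turned to 0.22 and 0.09.

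ATF3 (GSHG0001659, chr1:212565407-212620776), a bZIP factor induced by many kinds of cell stress, differed between the controls. It had 1167, 904.5 and 1119.7 normalized counts in G2, 606, 553 and 607 in SCR, and 1356 and 1242 in WT. SCR was the low line, and G2 lay between SCR and WT without overlapping either. ATF3 was called higher in G2/SCR, at 0.85 (SE 0.10, adjusted p = 2.1e-05, limma), and lower in SCR/WT, at -1.14 (SE 0.11, adjusted p = 1.7e-05). In G2/WT it was -0.30 (SE 0.11, adjusted p = 0.0427, limma), below the fold of 1.5. The sign of ATF3 in G2 therefore depended on the control.

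BATF3 (GSHG0003556, chr1:212686417-212699985), a short bZIP factor without an activation domain of its own, had 96.9, 95.3 and 113 normalized counts in G2, 19.4, 46.0 and 13.6 in SCR, and 32.3 and 49.6 in WT. G2 lay above all controls, and SCR and WT overlapped. The mean in G2 was 3.86 times that of SCR and 2.48 times that of WT, with log2 fold changes of 2.09 (SE 0.38, adjusted p = 0.0007, limma) and 1.32 (SE 0.43, adjusted p = 0.0214). The BATF3 log2 fold change G2/WT lost its call without G2 replicate 3 (adjusted p = 0.0595, limma) or without WT replicate 1 (adjusted p = 0.135). In SCR/WT, BATF3 was -0.77 and not called, but without SCR replicate 2 it was called lower, at -1.25 (adjusted p = 0.0184, limma).

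MAFF (GSHG0028630, chr22:38201991-38216508) encodes a small Maf protein, a bZIP factor that pairs with Fos proteins and with NRF-type factors. Its normalized counts were 815, 853 and 881 in G2, 657, 652 and 558 in SCR, and 559 and 449 in WT. G2 lay above all controls, and SCR reached just into the WT range. MAFF was called in G2/WT, at 0.76 (SE 0.11, adjusted p = 0.00015, limma), but not in G2/SCR, at 0.45 (SE 0.10, adjusted p = 0.00306). In SCR/WT it was 0.31 (adjusted p = 0.0546, limma), and 0.59 and called with all libraries at the same total.

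**Figure D2:**
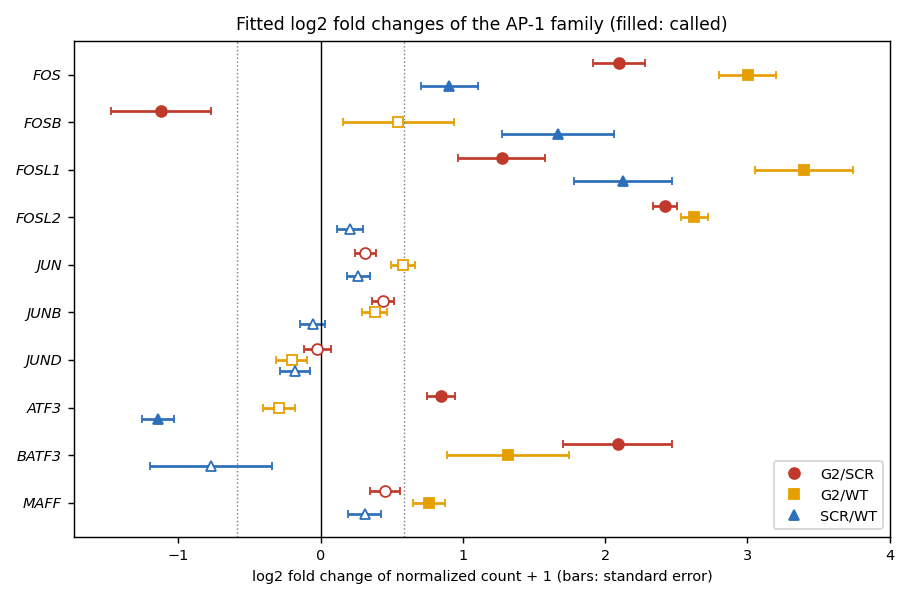
Fitted log2 fold change (horizontal axis) of each AP-1 family gene in G2/SCR, G2/WT and SCR/WT, with bars of 1 standard error. Filled symbols were called, and dotted lines mark a fold of 1.5 in either direction. FOSL2 sits at 2.42 and 2.63 in the G2 comparisons and near 0 in SCR/WT, whereas FOSL1 and FOSB also lie far from 0 in SCR/WT.

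SCR/WT compares lines of which neither carries the PRPF40B edit. Of the 10 members, 4 were called here, FOS, FOSB and FOSL1 higher and ATF3 lower in SCR. Of all tested genes 13.8% were called, 8.95% higher and 4.83% lower. Puromycin, passage as a single colony and the CRISPR/Cas9 machinery with a guide separate SCR from WT and cannot be told apart here, nor from the difference in ribosomal RNA. Only FOSL2 and BATF3 were called against each control alike without being called in SCR/WT, both higher in G2. Of all tested genes 13.4% had this pattern, 8.12% higher and 5.24% lower. FOS and FOSL1 missed it because they were also higher in SCR than in WT.

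Levels of different genes were compared per kilobase of merged GENCODE exon. The counted entries do not have the same extent as these exons. The JUN entry spans 3.257 kb against 3.624 kb of merged exon, and the FOS entry 431 kb against 3.186 kb. Ranks, sums, shares and ratios per kb are therefore approximate. In G2, JUNB led with 3832 normalized counts per kb, followed by JUND with 3074 and JUN with 1008. ATF3 and FOSL2 came next, at 266 and 262, with overlapping ranges, then FOSL1 at 222, MAFF at 151, FOS at 89.3, BATF3 at 39.6 and FOSB at 5.35. In SCR the first place went to JUND, at 3119, with a range that overlapped that of JUNB at 2822. FOSL2 had rank 5 in G2, within the spread of ATF3 above it, and rank 7 in SCR, at 48.8, below MAFF and FOSL1. In WT, FOSL2 had rank 6 at 42.4, between MAFF at 89.8 and FOSL1 at 23.9, and FOSL1 and BATF3 overlapped.

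The Fos sum differed more between the lines than the Jun sum. The summed Fos genes reached 571, 606 and 560.4 normalized counts per kb in G2, 168, 178 and 174 in SCR, and 97.2 and 64.8 in WT. The 3 lines did not overlap. The summed Jun genes were 7513, 7459 and 8767 in G2, 6885, 6468 and 6895 in SCR, and 7903 and 6455 in WT, and the WT range spanned that of SCR. The ratio of the Jun sum to the Fos sum was 13.7 ± 1.73 for G2 (SD, n = 3), 38.9 ± 2.46 for SCR (n = 3) and 90.5 ± 12.9 for WT (n = 2). Within the Fos sum, FOSL2 and FOSL1 together made up the larger part in every line. The share of FOSL2 was 45.3% ± 2.62 in G2, 28.1% ± 1.54 in SCR and 53.8% ± 10.5 in WT, and that of FOSL1 was 38.4% ± 2.64, 52.9% ± 5.49 and 27.6% ± 13.7. FOS itself held 15.4%, 12.1% and 14.1%. Within the Jun sum, JUNB held 48.4% ± 0.788 in G2, above the 41.8% ± 1.90 in SCR and 41.1% ± 1.22 in WT, and JUND held the lower share in G2, 38.9% against 46.2% and 49.5%. No test was made on these sums, since the members were chosen with results known.

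**Figure D3:**
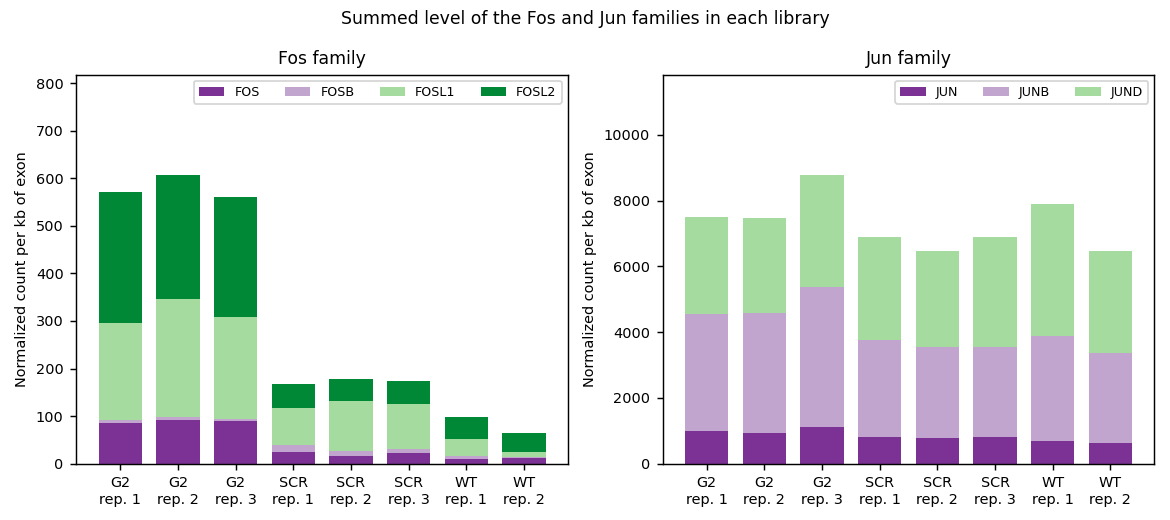
Stacked bars of the normalized count per kilobase of merged exon (vertical axes, linear, from 0, with a different scale in each panel) of the Fos genes and of the Jun genes in each library. The Fos bars are tallest in the 3 G2 libraries, at 560.4 to 606, against 64.8 to 178 in the controls, whereas the Jun bars of all lines lie between 6455 and 8767.

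The spread between replicates differed between members. The SD of log2(normalized count + 1) within lines, pooled over the lines, was 0.59 for BATF3, 0.53 for FOSL1 and 0.46 for FOSB, 0.18 for FOS and 0.07 for FOSL2. G2 replicate 3 was the highest of its line for 5 members, among them all 3 Jun genes. WT replicate 1 exceeded WT replicate 2 for 8 members, the exceptions being FOS and BATF3.

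The genes whose values followed those of FOSL2 most closely over the 8 libraries, weakly expressed genes left out, were DKK1, SMO and PLEKHA5 (Pearson r = 0.999 for each). PLEKHA5 moved by a like amount, 2.30 in G2/SCR and 2.48 in G2/WT on the log2 scale, while DKK1, a secreted Wnt antagonist, moved by 1.03 and 1.11. For BATF3 they were NHLRC2 (r = 0.988), DPY19L1P2 (0.984) and PTP4A2 (0.977). These moved less than BATF3, by 0.62, 0.75 and 0.41 in G2/SCR and by 0.37, 0.38 and 0.28 in G2/WT. None of them was called in G2/WT, and PTP4A2 was not called in G2/SCR either. Since the points are 8 libraries of 3 lines, these values mainly mirror the order of the lines and are a description.

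Other bZIP genes that can pair with AP-1 proteins or compete for their sites were counted from a list of 27, of which 22 were tested. In G2/SCR 10 were higher and none lower, where 14.3% and 10.7% of all tested genes were. In G2/WT 10 were higher and 2 lower, where 16.9% and 11.3% of all tested genes were. The medians were 0.51 and 0.56 on the log2 scale. For CREB5, a CRE-binding factor related to ATF2, G2 held 914 ± 59.8 normalized counts (n = 3, SD), SCR 276 ± 31.1 (n = 3) and WT 170 ± 39.6 (n = 2). CREM, whose products activate or repress through the CRE, went up by 1.26 and 1.42 in the 2 comparisons, and CEBPB by 1.06 and 1.12. JDP2, whose entry overlaps that of FOS, was at 0.16 in G2/SCR. BATF was listed at 0 in every library.

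Immediate-early genes outside the family were mostly higher in G2. Of 28 listed, 25 were tested, 15 were higher and none lower in G2/SCR (14.3% and 10.7% of all tested genes), and 18 were higher and 1 lower in G2/WT (16.9% and 11.3%). The median log2 fold change was 1.17 against SCR and 1.01 against WT, or 0.99 when genes at the detection floor take their bound. EGR1, a zinc finger factor induced by the same MAP kinase route as FOS, stood at 4743 ± 77.1 in G2 (n = 3, SD), 730 ± 36.5 in SCR (n = 3) and 493 ± 65.1 in WT (n = 2), and was called against SCR (adjusted p = 1.4e-10, limma) and against WT, at 3.27 (SE 0.09, adjusted p = 6.7e-11). EGR3 moved by 3.53 in G2/SCR and CCN1, a secreted matrix protein, by 2.88, and CCN1 was also called higher in SCR/WT. DUSP1 (0.45), IER2 (0.33) and IER5 (0.17) were not called in G2/SCR. In SCR/WT, 6 of the 25 were higher and 1 lower, against 8.95% and 4.83% of all tested genes. EGR2 and IER3 had WT means of 5.09 and 1.24, around the detection floor, and SCR means of 20.8 and 31.8. The filter took in the G2 libraries, so a high level in G2 made it easier for a gene to pass. These counts are therefore a description. CCN2 was listed at 0 in every library. Whether such zeros, here and for the other genes listed at 0, come from the counting or from absent transcripts is not known. Of 9 tested heat shock genes, which respond to handling and stress, HSPB1 alone was called higher in G2/SCR and 4 were in G2/WT. The shares of all tested genes were 14.3% and 16.9%. In SCR/WT 2 of the 9 were called higher and 1 lower, against 8.95% and 4.83% of all tested genes. HSPA1A, the main inducible HSP70 gene, had a log2 fold change of 0.05 against SCR and 1.14 against WT. The part of culture handling in the immediate-early values was not tested.

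Upstream kinases and their nuclear targets were called about as often as all tested genes. All 33 listed genes were tested. In G2/SCR 5 were higher and 4 lower, and in G2/WT 6 and 3, or 9 of 33 in each, beside 25.0% and 28.2% of all tested genes. The medians were 0.00 and 0.04. ELK3, an ETS factor that acts with serum response factor, rose by 1.62 and 1.88 on the log2 scale. MEF2A rose by 0.69 and 0.82. MAP2K3, a kinase of p38, rose by 1.05 and 1.38, while MAP2K6, the other main p38 kinase, fell by 0.69 and 0.82. MAPK8IP2, a scaffold of the JNK kinases in neurons, fell by 1.44 and 1.61. The JNK genes themselves were at -0.42 (MAPK8), 0.64 (MAPK9, called higher) and -0.35 (MAPK10) in G2/SCR.

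Of 21 genes that restrain this signalling, 9 were higher and none lower in G2/SCR (14.3% and 10.7% of all tested genes), and 9 were higher and 1 lower in G2/WT (16.9% and 11.3%). These include feedback inhibitors that are themselves switched on by ERK. SPRY1, which blocks receptor tyrosine kinase signalling, stood at 14046 ± 241 in G2 (n = 3, SD), 1533 ± 123 in SCR (n = 3) and 1879 in WT, and rose by 3.20 and 2.90 on the log2 scale. SPRY2 rose by 1.80 and 1.26, and DUSP5, a nuclear ERK phosphatase, by 1.78 and 1.29.

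Textbook target genes of AP-1 were counted from a list of 35, of which 23 were tested. In G2/SCR 17 were higher and 3 lower (14.3% and 10.7% of all tested genes), and in G2/WT 17 were higher and 1 lower (16.9% and 11.3%), with medians of 1.59 and 1.86 on the log2 scale. When genes at the floor take their bound, the first median was 1.47. The filter took in the G2 libraries here too, so the counts of this list are a description. MMP9, called higher in G2/SCR, had means of 25.4 in G2, 2.82 in SCR and 13.4 in WT, and passed the filter only through G2. KRT18, called higher in G2/WT, had a WT mean of 0.993, around the detection floor. HBEGF, an EGF receptor ligand, stood at 2039 ± 44.6 in G2 (n = 3, SD), 107 ± 26.4 in SCR (n = 3) and 70.6 ± 6.82 in WT (n = 2). TGFB1 moved by 4.17 and 3.49, and TIMP1, a metalloproteinase inhibitor, by 7.46 and 3.91. TIMP1 was also called lower in SCR/WT, at -3.55. The genes lower in G2/SCR were CDKN2A (-1.81), CDKN1A (-0.84) and MMP2 (-0.60), of which CDKN2A and CDKN1A encode inhibitors of the cell cycle, both also called higher in SCR/WT. Against WT, CDKN1A was called higher in G2, at 1.56, so its direction depended on the control. Of the 12 that were not tested, MMP3, IL6, AREG, EREG and FASLG were listed at 0 in every library. These genes have many regulators besides AP-1, and binding was not measured here.

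**Figure D4:**
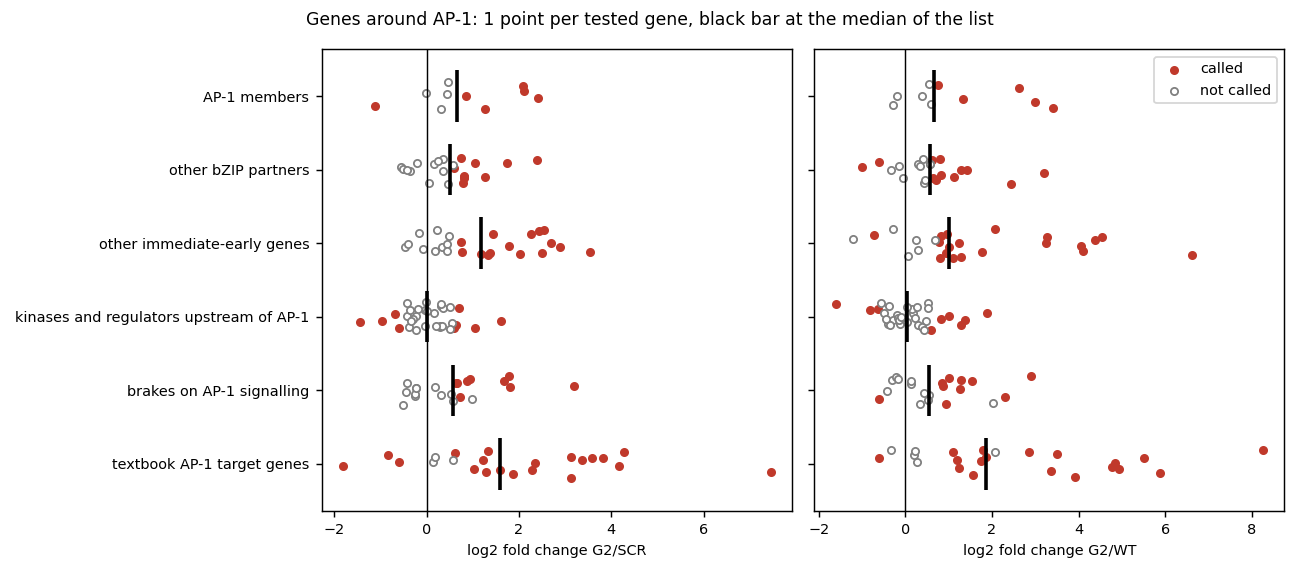
Log2 fold change (horizontal axes) in G2/SCR on the left and G2/WT on the right for each tested gene of the AP-1 family and of 5 lists around it. Filled points were called, open points were not, vertical scatter within a list carries no value, and the black bar is the median. The target and immediate-early lists reach furthest to the right, with medians of 1.59 and 1.17 in G2/SCR, while the upstream list centres on 0.00.

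Markers of cell types also differed between the lines. Of 14 adrenergic NB markers, all tested, none was called higher in G2. Against SCR 11 were called lower and against WT 10, beside 10.7% and 11.3% of all tested genes. GATA3 went the other way, with means of 18206 in G2, 14129 in SCR and 14963 in WT. Its log2 fold changes of 0.37 in G2/SCR (adjusted p = 0.00014, limma) and 0.28 in G2/WT (adjusted p = 0.002) stayed below the fold needed for a call. On the log2 scale CHGA was at -3.08 in G2/SCR and -3.43 in G2/WT. DBH was at -1.74 and -2.00, and ISL1 at -1.39 and -1.62. Their summed level was 282140 to 286528 normalized counts in G2, 398897 to 408793 in SCR and 370428 to 382963 in WT. STMN2, a neuronal microtubule regulator, made up the largest part of the sum in G2, with a mean of 165520 against 170240 in SCR and 116780 in WT, and was not called. HAND2, an adrenergic lineage factor, had a mean of 33678 in G2, 52490 in SCR and 50733 in WT, whereas TH had a mean of 1.88 in G2, 14.0 in SCR and 16.9 in WT, around the detection floor, and passed the filter only through the controls. Of 12 fibroblast and mesenchymal markers, 10 were tested and 7, COL1A1 and DCN among them, were higher in both G2 comparisons, 3 of them also in SCR/WT (14.3%, 16.9% and 8.95% of all tested genes). Their sum was 114285 to 116652 in G2, 37570 to 39733 in SCR and 32180 to 34212 in WT. COL3A1 and DCN led the sum in G2, with means of 40955 and 37183. TWIST1 led it in SCR and WT, at 27740 and 26687, against 21105 in G2. TWIST1, PDGFRA and PDGFRB were not called in any comparison. The defining marker PRRX1 was listed at 0 in every control library and had a mean of 30.5 in G2, so it passed the filter only through G2 and its call is no support. POSTN was listed at 0 in all libraries. Schwann cell markers summed to 8519 to 8940 in G2 and 6109 to 7123 in the controls, almost all of it PMP22, with SOX10 at 0. Blood and endothelial markers summed to 746 to 779 in G2 and 103 to 169 in the controls, mostly CD68, with CD3E and PECAM1 at 0. In bulk RNA, fewer cells of a type and less RNA per cell cannot be told apart, and the part of these markers in the AP-1 differences was not tested.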

How the data were processed

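SH-SY5Y RNA was sequenced as paired reads from a stranded mRNA library, 3 libraries each of G2 and SCR and 2 of WT. The authors used STAR on hg38, featureCounts (Subread 1.5.0) on FAST DB genes, and DESeq2 for normalization. The values deposited are this signal, a count per gene and library divided by a size factor, not scaled to length. In 7 libraries 100% of values were whole multiples of 1 step (tolerance 0.01), which gives back the counts. For WT replicate 2 the step lay too near 1 to be checked, so its recovered counts served only for its total and the floor. A gene was at the floor in a line when no library exceeded 9 recovered counts. Intervals and floors cover counting error only.

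The 18947 genes that averaged 10 or more across the 8 libraries were fitted with limma 3.58.1 (R 4.3.3) on log2(value + 1), with a mean per line, a variance trend and Benjamini-Hochberg adjustment over all of them. As alternatives for G2/SCR, the recovered counts were tested with edgeR 4.0.16 and with DESeq2 1.42.0. Exon lengths are merged GENCODE 44 exons of the same build. The members, lists, motifs and tests were chosen with earlier results of these data known, and the core TGACGT was searched after the full elements. Named genes outside the family are the up to 3 highest and 3 lowest of each list, among those called alike against SCR and against WT and averaging 100 or more, and the 3 genes most correlated with FOSL2 and with BATF3. Other genes named from the lists were picked after their values were seen.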

Additional observations from a re-analysis of the deposited data

How the results depend on the processing

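Under the alternatives tried, the number of AP-1 genes called ranged from 4 to 6 in G2/SCR, from 4 to 6 in G2/WT and from 3 to 5 in SCR/WT, and no called gene changed sign. Leaving out each library in turn gave 5 to 6, 4 to 6 and 4 to 5. DESeq2 and edgeR on the recovered counts both called the 6 genes of G2/SCR. With a fold of at least 2, ATF3 in G2/SCR, MAFF in G2/WT and FOS in SCR/WT were no longer called, and without a variance trend the BATF3 log2 fold change G2/WT had an adjusted p of 0.0614 (limma). All tested genes called G2/SCR, all tested genes called G2/WT and all tested genes called SCR/WT, 4729, 5343 and 2612, became 2780, 2997 and 1235 with a fold of at least 2, which is stricter by construction. With a mean of at least 100, so that fewer genes were tested, all tested genes called G2/SCR numbered 3086 and all tested genes called SCR/WT 1702.

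The replicate numbers of the labels did not pair the libraries. Deviations from the line means of same-numbered G2 and SCR libraries correlated at -0.13, 0.05 and 0.15 across genes. A fit with the replicate number as a block called 6, 5 and 4 AP-1 genes, as without it, and, for all tested genes called G2/SCR, all tested genes called G2/WT and all tested genes called SCR/WT, 4694, 5256 and 2454.

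With 2 WT libraries, comparisons with WT rest on a spread shared with the other lines. FOSB and BATF3, below 115 normalized counts throughout, are the members that depth limits most.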
